A study of Mus musculus with 8 samples.

Results

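Fragments of the nuclear glycine tRNAs were followed by anticodon in mature mouse sperm. Members were all distinct sequences whose annotation held tRNA-Gly names alone and no mitochondrial tRNA, which gave 2948 of the 5724730 distinct sequences in the 8 libraries. Of these, 1161 carried the anticodon GCC only, 756 CCC, 924 TCC and 98 more than 1 glycine anticodon (called shared here). The remaining 9 carried ACC and summed to 0 to 0.430 RPM (reads scaled to the total of the library) in each sample, too few to compare. The annotation also gives the end of the mature tRNA that a fragment reaches: its 5' end, its 3' end before the added CCA, the CCA itself, or none of these.

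The study asked whether exciting hunger-promoting AgRP neurons changes the small RNAs that sperm carry. Sperm came from 4 Agrp Cre/+ mice (activated) and 4 Agrp +/+ mice (control), males that were 8 weeks old when AAV-hM3Dq-mCherry was injected on both sides of the arcuate nucleus. All 8 mice received the virus and, 3 weeks later and without food, the same dose of the ligand CNO (1 mg/kg), and sperm was taken from the caudae epididymides 4 h after it. The receptor needs Cre, so the groups differ in the Cre allele as well as in neuronal activity, and these cannot be told apart; no group without CNO was sequenced. Sperm was let out of the opened caudae into saline and washed, and the study's methods name no lysis of other cells but a check of purity by qPCR, with E-cadherin and C-kit as markers of them.

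tRNA-Gly reads the glycine codons through the anticodons GCC, CCC and TCC. Sperm gains fragments of mature tRNAs while it passes through the epididymis, and the 5' fragment of tRNA-Gly-GCC is known as one of the most abundant of them. Such fragments arise from cuts in the anticodon loop by ribonucleases such as angiogenin, while methylation by DNMT2 of tRNA-Gly-GCC, tRNA-Asp-GTC and tRNA-Val-AAC protects these tRNAs from cleavage.

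To place the fragments, the mature tRNAs were assembled from the reads themselves, by joining a 5' fragment of 45 nt to a fragment with CCA over 16, 16 and 15 shared bases. They are shown 5' to 3' because every position given here counts from their 5' end, with the anticodon in capitals.
tRNA-Gly-GCC: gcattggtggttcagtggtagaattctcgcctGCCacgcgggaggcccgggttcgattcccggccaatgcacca
tRNA-Gly-CCC: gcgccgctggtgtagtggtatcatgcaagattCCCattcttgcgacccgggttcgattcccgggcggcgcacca
tRNA-Gly-TCC: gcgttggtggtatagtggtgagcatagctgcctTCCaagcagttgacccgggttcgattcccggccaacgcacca
The anticodon took positions 33 to 35 in GCC and CCC, both 74 nt long with CCA, and positions 34 to 36 in TCC, of 75 nt. In the first 25 bases, GCC and CCC had 16 in common at the same position, GCC and TCC 17 and CCC and TCC 15, which let the annotation assign 5' fragments to 1 anticodon. RefSeq lists 28 tRNA-Gly genes in GRCm38.p6, on 9 chromosomes: 14 for GCC, 6 for CCC, 7 for TCC and 1 for ACC. A cluster of 9 of them, 4 for GCC and 5 for TCC, lies at chr1:171037997-171102827. Fragments were assigned to an anticodon and not to a gene, and the assembled sequence of an anticodon need not be that of all its genes.

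The most abundant fragment of the main classes is shown next, to give the ends that these molecules have. Each held only a part of the reads of its class, such as 27.9% for GCC 5' and 44.3% for CCC with CCA. Capitals mark the bases of the anticodon that the fragment holds and, in fragments with the CCA end, also the CCA.
GCC, 5' end, 30 nt: gcattggtggttcagtggtagaattctcgc
GCC, no end, 19 nt: cctGCCacgcgggaggccc
GCC, CCA end, 44 nt: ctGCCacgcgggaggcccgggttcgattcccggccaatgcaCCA
CCC, 5' end, 34 nt: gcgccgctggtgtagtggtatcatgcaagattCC
CCC, CCA end, 22 nt: tcgattcccgggcggcgcaCCA
TCC, 5' end, 27 nt: gcgttggtggtatagtggtgagcatag
TCC, no end, 23 nt: cctTCCaagcagttgacccgggt
TCC, CCA end, 45 nt: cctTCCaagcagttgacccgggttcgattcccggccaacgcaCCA
shared by CCC and GCC, CCA end, 22 nt: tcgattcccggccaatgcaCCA
The shared fragment of 22 nt is the end of the assembled GCC and does not occur in the assembled CCC, though its annotation names both. It averaged 766 RPM in activated and 1001 RPM in control samples, above the GCC fragment of 44 nt (357 and 390 RPM). The GCC class with CCA, and the ends and coverage of GCC below, thus leave it out by the annotation. Between 86.9% and 93.1% of the reads with CCA did not match the genome, where the CCA is not encoded, against 0% of the reads of 5' fragments.

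The libraries held 14903635, 17489698, 14757501 and 9409491 reads in activated samples 1 to 4 and 12421068, 23123740, 9297271 and 14348060 in control samples 1 to 4. Mitochondrial rRNA took 0.182%, 1.89%, 1.69% and 0.145% of the reads in the activated samples and 1.21%, 0.167%, 1.09% and 0.123% in the control samples. Activated 1 and 4 and control 2 and 4 thus lay below 0.5% and the other 4 samples above it. This split was known from earlier results and holds 2 samples of each group, so each comparison is also given within either set, with no test.

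All 8 miRNAs typical of sperm and testis were detected and summed to between 20028 and 38887 RPM, with miR-34b the most abundant at a mean of 8319 RPM. Those of other cells were detected too, and none was at 0 over all samples. The 7 epithelial miRNAs (miR-200c highest) summed to 3476, 1166, 1085 and 1196 RPM in activated samples against 1364, 1825, 2732 and 19420.2 in control samples. The 5 of muscle and vessel (miR-143 highest) summed to 524, 258, 180.2 and 374 RPM against 255, 445, 307 and 36472. Control 4 thus stood apart from the other 7 samples in both lists. The 4 erythrocyte miRNAs (miR-451a highest) summed to 201, 47.9, 64.6 and 58.3 RPM in activated samples against 126, 383, 565 and 285 in control samples, with only activated 1 inside the control range. The 5 leukocyte miRNAs (miR-142a highest) lay between 394 and 979 RPM in all samples. In RNA from many cells, fewer cells of a type and less RNA per cell cannot be told apart, and the part of these cells in the results on tRNA-Gly was not tested.

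The makeup of the fragments differed between the anticodons. GCC took 73.7% to 84.1% of the tRNA-Gly reads in a sample, CCC 6.22% to 9.92%, TCC 6.47% to 11.4% and the shared fragments 3.04% to 5.24%. Among GCC reads, 73.4% to 87.0% came from the 5' end, so this class alone made up 54.1% to 71.9% of all tRNA-Gly reads. Among CCC reads the CCA end led with 42.3% to 60.5%, and the 5' end took 6.35% to 29.1%, highest in control 3. Among TCC reads, 66.4% to 77.4% reached no end of the tRNA and 6.37% to 9.28% came from the 5' end. In every sample, then, GCC was seen mainly as 5' fragments and TCC mainly as internal pieces, while the CCA end was the largest class of CCC.

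**Figure D1:**
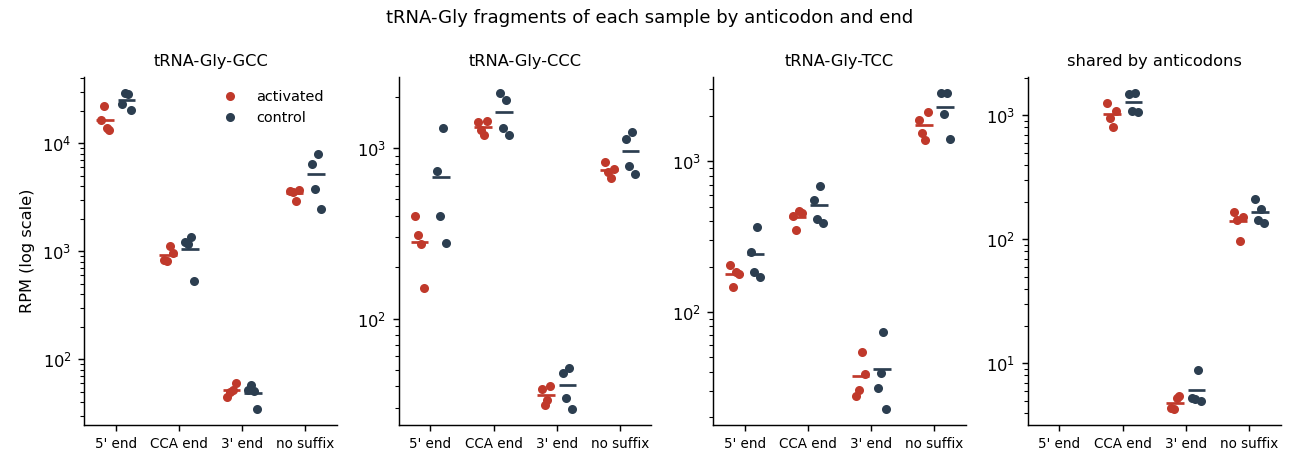
RPM on a log scale of each fragment class by anticodon and end, with 1 point per sample, activated in red and control in dark blue, and a line at the mean of the 4 samples; axes differ between anticodons. The 5' fragments of GCC lie between 13164 and 29264 RPM, and those of CCC and TCC between 146 and 1309 RPM.

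The ends of the fragments were then placed on each tRNA. An end can come from a cut or from a stop of reverse transcription, which was not tested. Between 96.5% and 97.6% of GCC reads could be placed. The ends and the coverage leave out reads that differ from the assembled sequence, among them 5' fragments with another base at position 5 (T5G, below). Of all GCC reads, 71.4% to 83.7% were placed and began at position 1. The most frequent last positions were 30 (18.6% to 26.1%), 32 (12.7% to 26.5%) and 31 (11.9% to 21.4%), within 3 bases before the anticodon. In CCC, 42.3% to 60.4% of the reads ended at position 74, the end of the CCA, and the most frequent starts were position 53 (21.8% to 28.7%), position 1 (6.27% to 28.9%) and position 57 (9.95% to 16.2%). In TCC, 44.7% to 55.6% of the reads began at position 31, 3 bases before the anticodon, and 28.02% to 34.8% ended at position 53.

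If an end is a cut, it leaves a 5' piece and a piece downstream of it, and the amounts of both could be compared. The placed GCC 5' fragments that ended at position 30 averaged 5815 RPM over the 8 samples, while the pieces that began at position 31 averaged 1018 RPM. Those ending at position 32 averaged 5467 RPM and the pieces starting at position 33 251 RPM. At position 29 the order was the opposite, with 1649 RPM of 5' fragments and 2294 RPM of pieces that began at position 30. TCC had more of the downstream pieces at its main site, with 8.91 RPM of 5' fragments ending at position 30 and 1361 RPM of pieces starting at position 31. At position 27, where its main 5' fragment ends, it had 120 RPM of 5' fragments against 17.6 RPM of pieces starting at position 28. CCC had 48.9 RPM of 5' fragments ending at position 29 against 275 RPM of pieces that began at position 30, but more 5' fragments than downstream pieces at position 30 (82.9 against 6.90 RPM) and at position 34 (162 against 122 RPM). Reads longer than 45 nt were not kept, so a downstream piece that reaches the CCA could be seen only from position 30 in GCC and CCC, and from position 31 in TCC.

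**Figure D2:**
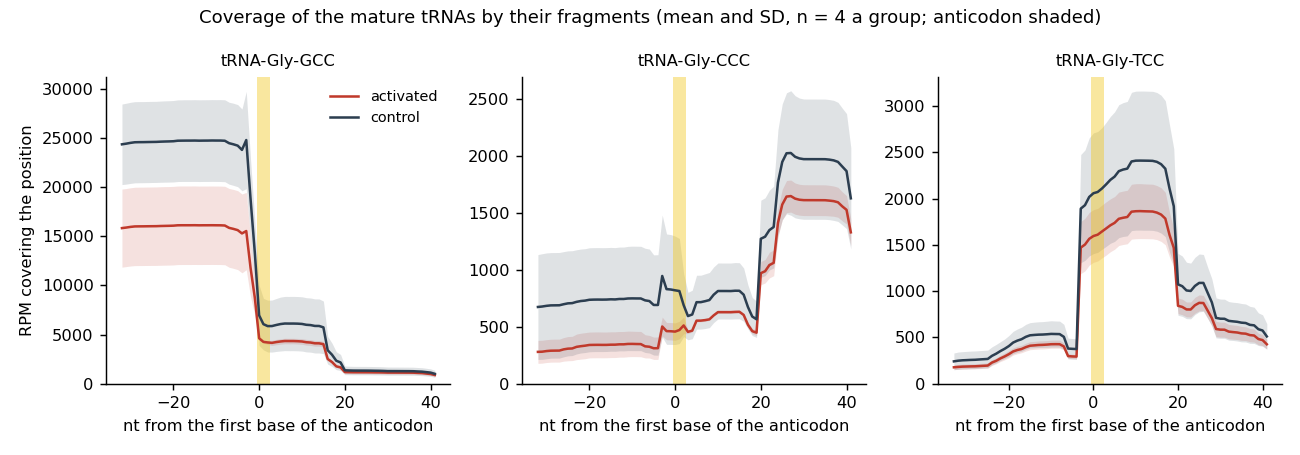
Mean RPM that covers each position of the 3 mature tRNAs, in nt from the first base of the anticodon (shaded), with a band of 1 SD over the 4 activated samples (red) and the 4 control samples (dark blue). Coverage of GCC drops at the anticodon, while CCC and TCC are covered mostly downstream of it.

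The comparison of activated with control sperm was first made on all tRNA-Gly reads. They summed to 27380 (activated 1), 32166, 23109 and 24320.2 RPM in activated samples and to 40318 (control 1), 40724, 47995 and 28695 RPM in control samples. Activated samples 1, 3 and 4 lay below every control sample, and activated 2 lay above control 4, the lowest control. The means were 26744 ± 4037 and 39433 ± 7981 RPM (SD, n = 4 each), a ratio of 0.678 that did not pass a p of 0.05 in a two-sided exact permutation test (p = 0.0571), whose smallest possible p for 4 against 4 is 0.0286. Of the 24 sums by anticodon and end tested this way, no other had a lower p. Within the samples below 0.5% mitochondrial rRNA the ratio was 0.745, and within those above it 0.626.

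The result depended on the scaling and on 1 library. Scaled to the effective library sizes of edgeR (the reads of the tested fragments times the TMM factor), the tRNA-Gly reads were, on the scale of RPM, 42423, 36172, 28061 and 35644 in activated samples against 45676, 56235, 63220 and 51678 in control samples. There all activated samples lay below all control samples (ratio 0.656, exact permutation test p = 0.0286). Control 4, the lowest control in RPM at 28695, stood at 51678 on this scale, where the denominator changed both to the reads of the tested fragments and by its TMM factor of 0.689, the farthest from 1. Without control 4, the library with high epithelial and muscle miRNAs, the ratio in RPM was 0.622 (exact permutation test p = 0.0286), so both results turn on the same library.

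Of the anticodons, GCC held most of that difference, as it held most of the tRNA-Gly reads (a mean of 80.2% in control samples). GCC reads amounted to 20707, 26652, 17936 and 17923 RPM in activated samples and 30939, 34253, 37836 and 23318.5 RPM in control samples (ratio 0.659, exact permutation test p = 0.0571). Its 5' fragments stood at 16260.1, 22256, 13879.5 and 13164 RPM against 23276, 29264, 28508 and 20279 RPM (ratio 0.647, exact permutation test p = 0.0571). In both sums activated 2 was the only activated sample above the lowest control, which was control 4. The 5' ratio was 0.594 in the samples with little mitochondrial rRNA and 0.698 in the others. With edgeR's effective library sizes all activated samples lay below all control samples in the 5' sum too (ratio 0.613, exact permutation test p = 0.0286).

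The GCC fragments that hold the anticodon arm or the 3' side did not follow the 5' fragments in every set. Those with no end measured 3581, 3540, 2893 and 3729.9 RPM in activated samples and 6404, 3774, 7930.4 and 2480 RPM in control samples (ratio 0.668, exact permutation test p = 0.314). Controls 1 and 3 were high and control 4 was the lowest sample of all, and the ratio was 1.17 in the samples with little mitochondrial rRNA and 0.449 in the others. Those with the CCA end measured 822, 806, 1111 and 969.9 RPM against 1207, 1157, 1346 and 526 RPM (ratio 0.876, exact permutation test p = 0.543). The activated values all lay within the control range, which was widest through control 4. Fragments that reached the 3' end before the CCA stayed between 34.6 and 59.7 RPM in all samples (ratio 1.06, exact permutation test p = 0.629).

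tRNA-Gly-CCC had the lowest ratio of the 5' classes. Its 5' fragments measured 396, 307, 273 and 151 RPM in activated samples and 727, 400.5, 1309 and 277 RPM in control samples (ratio 0.415, exact permutation test p = 0.114). Activated 3 and 4 lay below every control sample, activated 1 and 2 lay above control 4, and control 3 exceeded all others. Without control 4 the ratio was 0.347 (exact permutation test p = 0.0286), and without control 3 it was 0.602 (exact permutation test p = 0.2). Within the 2 sets of samples the CCC 5' ratio was 0.808 (little mitochondrial rRNA) and 0.285. All CCC reads together measured 2681, 2338, 2161 and 2379.5 RPM in activated samples against 4001, 2531, 4504 and 2197 RPM (ratio 0.722, exact permutation test p = 0.229). The groups overlapped through controls 2 and 4, and the direction turned in the samples with little mitochondrial rRNA (ratio 1.07, and 0.529 in the others).

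TCC and the shared fragments showed the same split. TCC reads amounted to 2557.5, 2080.2, 2097 and 2783 RPM in activated samples and 3674, 2703, 3957 and 1985 RPM in control samples (ratio 0.773, exact permutation test p = 0.257). Controls 1 and 3 lay above all activated samples and control 4 below them. The ratio was 1.14 in the samples with little mitochondrial rRNA and 0.547 in the others. The shared fragments, mostly pieces with the CCA end annotated to both GCC and CCC, measured 1434, 1096, 914 and 1235 RPM against 1704, 1237, 1699 and 1194 RPM (ratio 0.802, exact permutation test p = 0.171). Here too controls 1 and 3 were the high samples, with ratios of 1.098 and 0.591 within the 2 sets. GCC was therefore the anticodon whose sum was lower in activated samples within both sets, and whether the anticodons differ in this was not tested.

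**Figure D3:**
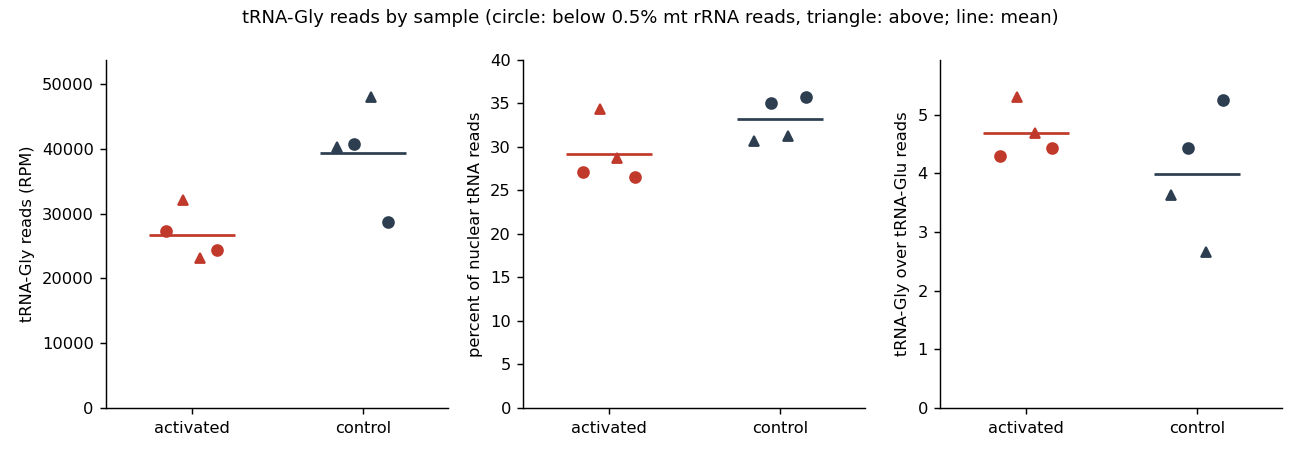
tRNA-Gly reads in RPM, as percent of nuclear tRNA reads and as a ratio to tRNA-Glu reads, with 1 point per sample (activated in red, control in dark blue; circles for samples below 0.5% mitochondrial rRNA, triangles for those above) and a line at the group mean. Activated 2, at 32166 RPM, is the only activated sample above the lowest control, at 28695 RPM.

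Length was read in the 5' fragments, where it gives the last position. The GCC 5' fragments of 29 to 32 nt took 84.4% to 91.0% of the reads of that class in each sample, with the highest mean at 30 nt. At 30 nt they summed to 3931, 6250.2, 4776 and 3809.6 RPM in activated samples and 8124, 8178, 8095 and 4735 RPM in control samples (ratio 0.644, exact permutation test p = 0.0857). Controls 1, 2 and 3 were close to each other and above all activated samples, and activated 2 and 3 lay above control 4. At 31 and 32 nt the ratios were 0.570 and 0.648 (exact permutation tests, p = 0.0857 and 0.114), at 28 and 29 nt 0.772 and 0.875, and at 34 and 35 nt 0.569 and 0.970.

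At 33 nt, where the fragment takes in the first base of the anticodon, the GCC 5' fragments measured 424, 519, 405 and 441 RPM in activated samples and 605, 693, 2044 and 793 RPM in control samples. All activated samples lay below all control samples (ratio 0.433, exact permutation test p = 0.0286, the smallest possible), and control 3 was far above the rest. Without control 3 the ratio was 0.642. Without any 1 of the activated samples p rose to between 0.0857 and 0.114 (exact permutation tests), while the ratio stayed between 0.410 and 0.446. The CCC 5' fragments of 33 nt were also apart, at 28.9, 26.4, 25.8 and 11.9 RPM against 46.8, 30.9, 104 and 32.1 RPM (ratio 0.435, exact permutation test p = 0.0286). Their main lengths of 34, 35 and 30 nt were not, with ratios of 0.293, 0.609 and 0.373 (exact permutation tests, p = 0.0857, 0.457 and 0.114), and at 35 nt the ratio was 1.57 in the samples with little mitochondrial rRNA. Both ratios at 35 nt rested on activated 1, with 169 RPM. The other activated samples held 21.5 to 41.2 RPM and the control samples 51.2 to 217 RPM. Among all 191 sums of tRNA-Gly species by length that reached 50 counts in 4 samples, 5 were apart with activated samples lower and 0 with activated samples higher, beside 1.85% and 0.926% of all 3239 such sums of any RNA.

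The mean length of GCC 5' fragments was 30.9, 30.9, 30.7 and 30.8 nt in activated samples and 30.7, 31.0, 31.0 and 31.0 nt in control samples (difference -0.0935 nt, exact permutation test p = 0.371). Control 1 had the shortest mean of all, and the groups overlapped. The ratio of reads at 32 nt to those at 30 nt spread widely within both groups, at 1.32, 1.02, 0.494 and 1.03 in activated samples against 0.611, 1.104, 0.884 and 1.35 in control samples. As percent of the GCC 5' reads, those of 29 nt took 10.9%, 7.54%, 10.97% and 10.2% in activated samples against 8.79%, 7.001%, 5.71% and 7.44% (ratio 1.37). Those of 40 nt and longer took 1.20%, 0.901%, 1.60% and 1.57% against 0.875%, 1.16%, 0.777% and 0.705% (ratio 1.501). In both percentages activated 2 lay inside the control range and the other activated samples above it, and the ratios were 1.47 and 1.28 at 29 nt and 1.49 and 1.52 for the longer reads within the sets below and above 0.5% mitochondrial rRNA. These were not tested. TCC 5' fragments peaked at 27 nt, before the anticodon loop, with 120, 89.1, 113 and 115 RPM in activated samples and 169, 100.3, 157 and 98.7 RPM in control samples (ratio 0.832, exact permutation test p = 0.371).

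**Figure D4:**
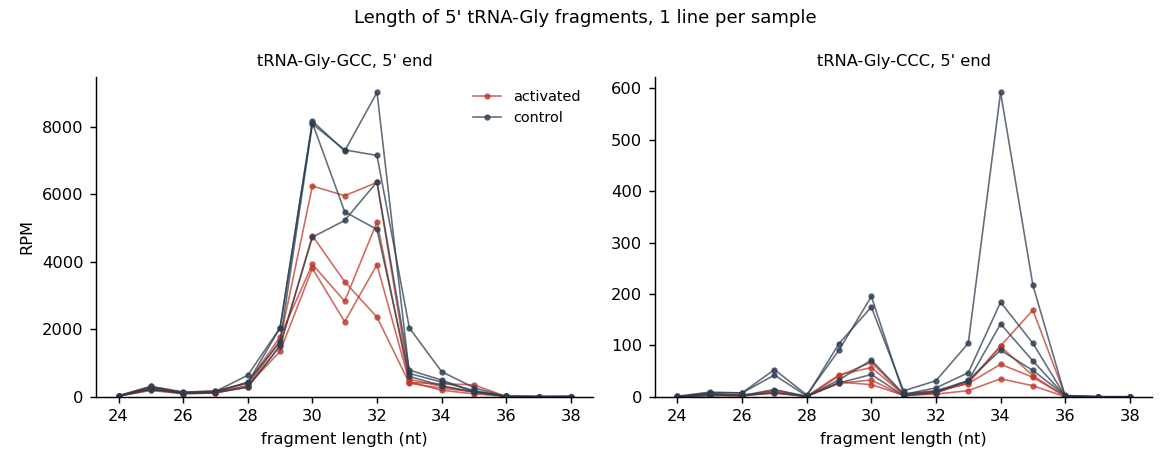
RPM of 5' fragments of GCC (left) and CCC (right) by fragment length in nt, with 1 line per sample, activated in red and control in dark blue. GCC fragments concentrate at 30 to 32 nt and CCC fragments at 30 nt and at 34 and 35 nt, where control 3 reaches 592 RPM.

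Each fragment was then tested by edgeR's quasi-likelihood test among the 12077 fragments that reached 50 counts in 4 samples or more, 314 of them from tRNA-Gly. None of the 314 passed an adjusted p of 0.05 with an absolute log2 fold change over 1 (0 called), beside 0.505% of all fragments tested. At an unadjusted p under 0.05, 20 of the 314 were lower in activated samples, or 6.37%, beside 4.12% of all fragments, and 0 were higher, beside 3.12%. DESeq2 also called 0 of them, beside 1.99% of all, and its unadjusted p was under 0.05 for 30 lower fragments, or 9.55%, beside 4.12% of all. In RPM, 8 of the 314 were apart with activated samples lower and 1 with activated samples higher, beside 1.47% and 2.52% of all fragments. Thus neither tool called a single tRNA-Gly fragment, and the excess at low unadjusted p depended on control 3 and varied with the scaling. Without control 3 edgeR left 7 lower tRNA-Gly fragments at that p (2.23%, beside 2.41% of all), without control 4 it gave 35 (11.1%, beside 3.19% of all), and with library size as the only scaling 10 (3.18%, beside 2.77% of all).

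The direction was more uniform than the tests. The log2 fold change was negative for 287 of the 314 fragments, or 91.4%, against 49.0% of all fragments tested, with a median of -0.38 against 0.01. The fragments overlap in sequence and come from the same tRNAs, so they are not independent measurements. The median was -0.44 for GCC (124 of 139 negative), -0.42 for CCC (58 of 62), -0.37 for TCC (86 of 93) and -0.22 for the shared fragments (19 of 20). By end, 49 of 52 fragments from the 5' end, 42 of 48 with CCA, 192 of 206 with no end and 4 of 8 from the 3' end were negative. The 5' fragments also supplied 15 of the 20 with a low unadjusted p, 8 from GCC, 5 from CCC and 2 from TCC. The 10 CCC 5' fragments tested were all negative, with a median of -1.08.

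Counts were also summed by RNA species, that is by anticodon and end. Of the 619 species tested 16 were from tRNA-Gly, and edgeR called 0 of the 16 and 0% of all. At an unadjusted p under 0.05, 1 of the 16 was lower, beside 6.95% of all, and 0 were higher, beside 1.62%. DESeq2 called 0 of the 16, beside 0.485% of all, and its unadjusted p was under 0.05 for 2 lower species (6.79% of all). In RPM, 0 of the 16 were apart in either direction, beside 1.13% of all lower and 1.29% higher. The species lower in edgeR was CCC 5' (log2 fold change -1.22, SE 0.49, unadjusted p = 0.0338, adjusted p = 0.567), and GCC 5' had a log2 fold change of -0.57 (SE 0.26, adjusted p = 0.567). The only positive value among the 16 was 0.14, for the 3' end of GCC. Split further by length, edgeR called 0 of 191 sums and 0% of all 3239, where the unadjusted p was under 0.05 for 9 lower sums (5.31% of all) and 0 higher ones (1.7% of all). DESeq2 called 0 of these 191, beside 0.432% of all, with 17 lower sums at that p (6.11% of all).

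The tRNA-Gly fragments with the lowest p in each direction were named by rule and are shown for their ends. Capitals mark bases of the anticodon and, in the GCC 5' fragments, a base that differs from the common sequence, T5G (the common base, its position from the 5' end, the base in the fragment).
lower, GCC 5', 31 nt: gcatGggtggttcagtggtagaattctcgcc
lower, CCC 5', 30 nt: gcgccgctggtgtagtggtatcatgcaaga
lower, GCC 5', 33 nt: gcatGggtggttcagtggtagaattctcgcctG
higher, GCC, 38 nt: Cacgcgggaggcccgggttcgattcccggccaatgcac
higher, GCC 5', 41 nt: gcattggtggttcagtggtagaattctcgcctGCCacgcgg
higher, GCC, 17 nt: agtggtagaattctcgc
Among the leading sequences of GCC 5' reads of at least 25 nt, T5G made up 2.83% to 4.12% in each sample and the common sequence 95.9% to 97.2%. Like all tRNA-Gly 5' fragments, those with T5G matched the genome at 0 mismatches, so T5G stands in the reference too.

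The first of these, with T5G, measured 142, 275, 170.02 and 106 RPM in activated samples and 295, 354, 425 and 264 RPM in control samples. Only activated 2 lay inside the control range. Its log2 fold change was -1.06 (SE 0.33, edgeR unadjusted p = 0.00947, adjusted p = 0.420). The CCC 5' fragment of 30 nt measured 32.5, 56.7, 67.2 and 23.7 RPM in activated samples and 195, 71.1, 174 and 42.9 RPM in control samples (log2 fold change -1.44, SE 0.46, edgeR adjusted p = 0.467). Controls 1 and 3 were high, and control 4 lay within the activated range. With the set of mitochondrial rRNA as a covariate, edgeR called this fragment (log2 fold change -1.34, adjusted p = 0.0456), as 1 of the 314 from tRNA-Gly beside 0.886% of all fragments in that fit. The fragment with T5G of 33 nt measured 12.7, 20.2, 19.4 and 14.5 RPM against 19.9, 35.4, 109 and 29.6 RPM (log2 fold change -1.62, edgeR adjusted p = 0.483), and control 1 lay within the activated range. Without control 3 its log2 fold change was nearer 0, at -0.84.

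In the other direction the values were small. The GCC fragment of 38 nt, from position 35 to 72, measured 5.77, 6.58, 4.74 and 5.74 RPM in activated samples and 2.82, 4.67, 3.55 and 3.69 RPM in control samples. All activated samples lay above all control samples, with a log2 fold change of 0.54 (SE 0.36, edgeR adjusted p = 0.965). The fragments of 41 and 17 nt had log2 fold changes of 0.38 and 0.45 (edgeR adjusted p = 0.999 for both), and their groups overlapped. Without activated 3 the value at 41 nt was 0.16, and without activated 1 that at 17 nt was 0.03.

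For the most abundant fragment of each class the log2 fold change ranged from -1.78 (CCC 5') to 0.13 (GCC 3'). The GCC 5' fragment of 30 nt measured 3806, 6072, 4634 and 3727 RPM in activated samples and 7900.3, 7944, 7855 and 4583 RPM in control samples (log2 fold change -0.69, SE 0.26, edgeR adjusted p = 0.621). The CCC 5' fragment of 34 nt measured 98.2, 97.8, 63.1 and 35.1 RPM against 184, 141, 589.96 and 90.5 RPM (log2 fold change -1.78, SE 0.59, edgeR adjusted p = 0.521). In the former activated 2 and 3, and in the latter activated 1 and 2, exceeded control 4, and control 3 set the mean of the latter. The CCC fragment of 22 nt with CCA measured 628, 568, 431 and 607 RPM against 971, 629, 862 and 541 RPM (log2 fold change -0.43, edgeR adjusted p = 0.991), and the GCC fragment of 44 nt with CCA had a log2 fold change of -0.13 and the TCC fragment of 45 nt -0.11. The TCC fragment of 23 nt with no end measured 558, 388, 364 and 677 RPM against 836, 597, 823 and 395 RPM (log2 fold change -0.38, edgeR adjusted p = 0.999), with controls 1 and 3 above all activated samples.

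Whether tRNA-Gly moved apart from the rest of the nuclear tRNA fragments was tested on its share. It took 27.1%, 34.4%, 28.7% and 26.6% of nuclear tRNA reads in activated samples against 30.7%, 35.03%, 31.3% and 35.7% in control samples (difference -3.98 percentage points, exact permutation test p = 0.114). Activated 2 lay inside the control range and the other activated samples below it. The difference was -8.54 points in the samples with little mitochondrial rRNA and 0.575 points in the others, so it had no single direction. For all other nuclear tRNA reads the ratio was 0.802 (exact permutation test p = 0.257), with 1.11 and 0.604 in the 2 sets. Against tRNA-Glu, whose 5' fragments are also abundant in sperm, the ratio of tRNA-Gly to tRNA-Glu reads was 4.30, 5.30, 4.69 and 4.44 in activated samples against 3.63, 4.43, 2.66 and 5.25 in control samples. The groups overlapped (difference 0.27 on the log2 scale, exact permutation test p = 0.257), with differences of -0.14 and 0.68 in the 2 sets. Without control 3 the difference was 0.09 (exact permutation test p = 0.543). Between the 5' fragments alone the difference was 0.79 on that scale (exact permutation test p = 0.0857).

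Among the 29 anticodons with a tested 5' species, GCC was the most abundant at a mean of 20861 RPM and stood in place 16 by log2 fold change, counted from the lowest. CCC 5' stood in place 5 and TCC 5' (log2 fold change -0.41) in place 19. Of the 26 other anticodons 25 had a negative value, with a median of -0.59, and 9 an unadjusted p under 0.05 in edgeR. SeC-TCA was the positive one, at 0.17. The DNMT2 substrate Asp-GTC had a log2 fold change of -0.85, and its groups were apart. Val-AAC, another DNMT2 substrate, was tested only together with Val-CAC (-0.87), since its own 5' fragments stayed between 0.949 and 3.55 RPM. The values of the other anticodons chosen for comparison were -1.57 for Glu-CTC, -1.28 for Glu-TTC, -1.42 for His-GTG, -0.86 for Lys-CTT, -0.36 for Lys-TTT and -0.83 for Val-CAC. Control 3 stood far above the other controls for Glu-CTC (11810 RPM against 2389 to 5341) and His-GTG (131 against 19.7 to 39.7). The same held for Lys-CTT (6042 against 1464 to 2784) and Val-CAC (38.4 against 9.82 to 15.1). It also held for Asp-GTC (302 against 132 to 164) and Val-AAC with Val-CAC (121 against 38.9 to 47.4). For Glu-TTC (511 against 186 to 463) and Lys-TTT (2196 against 1292 to 2305) control 3 lay near or within their range. The negative direction was thus not particular to tRNA-Gly, though no 5' species passed an adjusted p of 0.05 in edgeR, and in DESeq2 Glu-TTC did (log2 fold change -1.09, adjusted p = 0.0280).

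GCC differed from the others in how its 5' ratio stood in the 2 sets of samples. The ratio was below 1 in the samples with much mitochondrial rRNA for 25 of the 26 other anticodons, and in those with little of it for 13 of the 26. GCC was the only one of the 29 whose ratio in the latter set (0.594) was the lower of the 2. This was noticed after the values were seen, rests on 2 samples against 2 in each set, and was not tested.

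**Figure D5:**
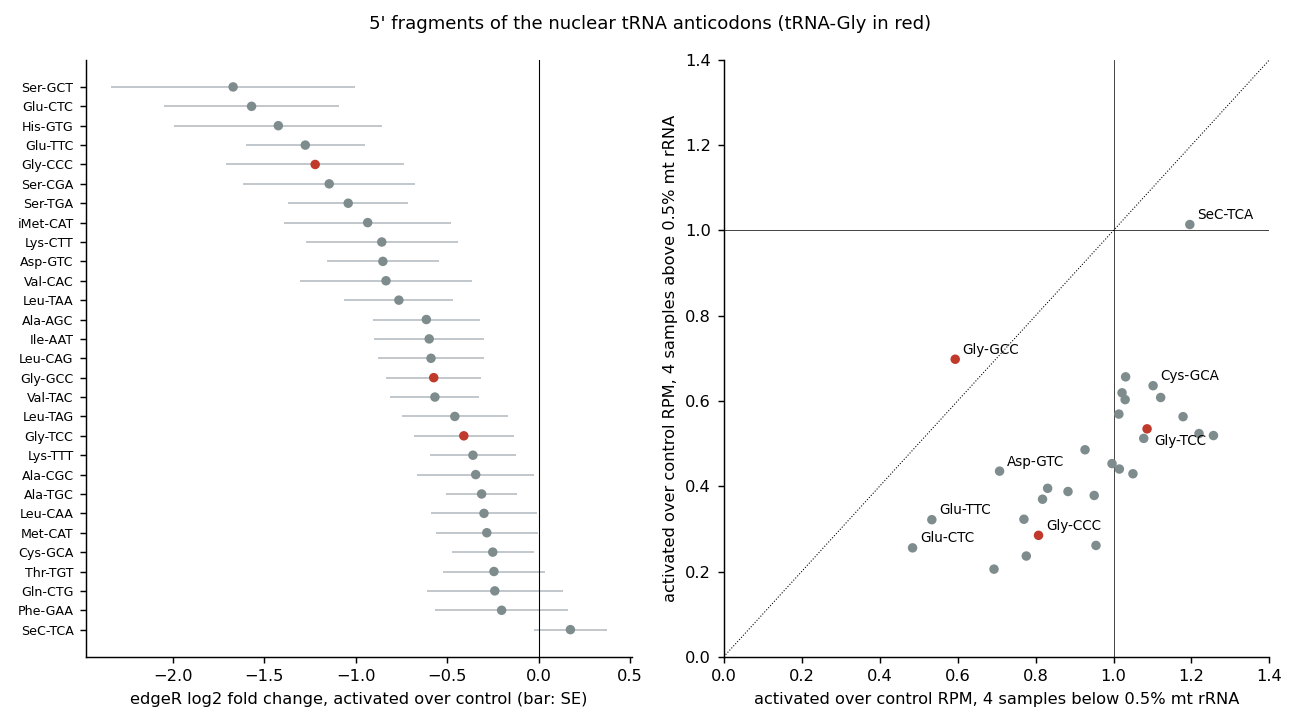
Left, edgeR log2 fold change with its SE of the 5' species of 29 nuclear tRNA anticodons, with tRNA-Gly in red; right, the ratio of activated to control RPM of the same species in the 4 samples above 0.5% mitochondrial rRNA against that in the 4 below, with a dotted line of equal ratios. Gly-GCC, at 0.594 and 0.698, is the only point above the dotted line.

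The species whose level over the 8 samples ran most like that of GCC 5' were looked up among 603 tested species outside tRNA-Gly, as a description of log2 CPM. They were Glu-CTC 5' (Pearson's r = 0.838, Spearman's rho = 0.929, n = 8), Glu-TTC 5' (r = 0.832, rho = 0.881) and Asp-GTC 5' (r = 0.816, rho = 0.881), followed by the CCA fragments that Ser-AGA and Ser-TGA share (r = 0.812) and Leu-CAG with no end (r = 0.802). Without activated 1 and 4, the 2 samples farthest from the median, r was 0.677, 0.673, 0.753, 0.465 and 0.533 for these 5. The lowest value, -0.786, belonged to the reads annotated to both miR-466f and miR-466i, and was -0.350 without those samples. Within tRNA-Gly, CCC 5' had r = 0.685 with GCC 5', TCC 5' 0.405 and the 3' end of GCC 0.0911. The points share libraries and group, and with 8 of them and the highest of 603 picked, these values carry no test.

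The data limit these results in several ways. With 4 mice a group, differences of the size seen in tRNA-Gly lay at the edge of what an exact permutation test can pass. The sums are relative to the other small RNAs of each library, so the amount of RNA per sperm was not measured. Base modifications of tRNAs can stop reverse transcription or block adapter ligation, and fragments longer than 45 nt or carrying mismatches were lost. The Cre allele cannot be told apart from neuronal activation. The sets of mitochondrial rRNA, which are balanced between groups, hold few samples, and the groups were not tested within either. The link of the fragments to the mice or to their offspring was not tested.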

How the data were processed

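Small RNA of mature sperm was sequenced in 4 activated and 4 control mice, 1 library per replicate number of the labels. The authors deposited raw read counts of each distinct sequence, made with SPORTS1.1: reads of 15 to 45 nt were kept after trimming, duplicates included, and annotated against mm10 and small RNA databases at 0 mismatches. Depth was 9297271 to 23123740 reads per library; no molecular identifiers were used, so reads do not count molecules and the spread between mice was taken as the error.

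Counts were summed by anticodon, end and length as RPM of the library and groups were compared in an exact permutation test, two-sided, of all 70 assignments (Python 3.11.15, numpy 2.4.6, pandas 2.3.3, scipy 1.17.1; figures with matplotlib 3.10.9). Sequences that also named another isotype (165) were left out. Fragments, species and species by length that reached 50 counts in 4 samples or more were fitted over the whole table with edgeR 4.0.16 (TMM, quasi-likelihood, Benjamini-Hochberg) in R 4.3.3, with DESeq2 1.42.0 and apeglm 1.24.0 as alternative. The edgeR fit was tried on simulated data. The changes put in there were larger than that of any tested tRNA-Gly fragment, so it does not show whether smaller ones would be called. SE is the absolute log2 fold change over the square root of F.

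Named were the top fragment of each class, the 3 fragments of lowest p in each direction, 5' sums from 28 to 34 nt, the 5 most alike species and the least alike, and preset 5' species. Members and lists were chosen with earlier results of these data known.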

Additional observations from a re-analysis of the deposited data

Results flagged for a closer look

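In groups of 4 samples, a value was singled out where its gap to the nearest other sample of its group over the group's range exceeded Dixon's critical ratio. Of 118 groups checked 11 held such a value, and chance gives about 1 in 20 groups.

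For tRNA-Gly-GCC 5' fragments, control 4 was low at 30 nt, with 4735 RPM against 8095 to 8178 in the other controls, and control 3 was high at 33 nt, with 2044 RPM against 605 to 793. The mean length of these fragments in control 1 was 30.66 nt, against 30.99 to 31.05 nt in the other controls. Control 3 was also high in TCC 5' fragments of 31 nt (8.82 RPM) and 34 nt (17.1 RPM) and in the shared fragments with the 3' end (8.82 RPM), and activated 3 in TCC 5' fragments of 29 nt (4.74 RPM). Among the miRNA lists, activated 1 was high for erythrocytes (201 RPM) and epithelium (3476 RPM), and control 4 for epithelium (19420.2 RPM) and for muscle and vessel (36472 RPM). The cause was not tested.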

How the results depend on the processing

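Of the recomputed values of the main results 157 counted as unchanged, 7 moved, 5 turned and 3 became stronger. Unchanged meant the same direction and side of a p of 0.05 where a permutation test was run. Within the sets of mitochondrial rRNA it meant the same direction and a shift below the pooled SD of the groups. For counts of calls it meant an equal count. The sign-flip test cannot give a p under 0.125, so with the replicate block these sums, shares and lengths could only count as unchanged. With edgeR's effective library sizes the ratios of tRNA-Gly (0.656) and GCC (0.632) passed a p of 0.05 (exact permutation test p = 0.0286 each). In the samples above 0.5% mitochondrial rRNA alone the ratios moved to 0.529 (CCC), 0.547 (TCC) and 0.591 (shared), the share difference turned to 0.575 points and the log2 ratio to tRNA-Glu moved to 0.68. In those below it the ratios turned to 1.07 (CCC), 1.14 (TCC) and 1.098 (shared), the log2 ratio to tRNA-Glu turned to -0.14 and the share difference moved to -8.54 points. The ratio of TCC 5' fragments, not counted among the main results, turned to 1.09 below 0.5% and moved to 0.535 above it. These sets hold 2 samples of each group and were not tested.

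Leaving out each sample in turn gave ratios of 0.622 to 0.731 (tRNA-Gly), 0.597 to 0.705 (GCC), 0.650 to 0.821 (CCC), 0.691 to 0.854 (TCC) and 0.742 to 0.860 (shared), share differences of -5.71 to -3.11 points, log2 ratios to tRNA-Glu of 0.09 to 0.42, length differences of -0.18 to -0.05 nt, and 0 called in edgeR at each level.

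The number of tRNA-Gly fragments called was 1 of 1699 with a minimum of 1 count in 4 samples (beside 0.722% of all fragments), 1 of 314 with the mitochondrial rRNA set as covariate (beside 0.886%), and 0 otherwise. Scaling by library size alone moved the median of all fragments from 0.01 to 0.12 and that of tRNA-Gly from -0.38 to -0.34. The cause was not tested.

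Samples share only replicate numbers: deviations of same-numbered samples correlated at -0.63, -0.55, 0.59 and 0.51. With the replicate block the ratio for tRNA-Gly was 0.678 (exact sign-flip p = 0.125, the smallest possible), that of GCC 5' fragments of 33 nt 0.433 (p = 0.125), and edgeR called 0 tRNA-Gly fragments. The design does not separate activation from the Cre allele, and 4 mice a group limit what could be detected.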
